A study of Mus musculus with 6 samples.

Results

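MicroRNA (miRNA) genes were followed in the frontal cortex of mice given the histone deacetylase inhibitor SAHA (suberoylanilide hydroxamic acid, vorinostat). The members are the genes of the array whose symbol starts with Mir or Mirlet followed by a digit, taken from probe sets that pair with 1 gene symbol. Of the 19938 genes measured in this way, 300 were members. 4 of the 300, Mir99ahg, Mir100hg, Mir17hg and Mir670hg, are long host transcripts of miRNAs and the others name hairpins. Another 65 miRNA symbols stood only on probe sets with several symbols and were not analysed here.

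All mice were wild type, of strain 129S6/SvEv, and 8 to 12 weeks old. The SAHA group received 20 mg per kg for 21 days, and the saline group, which the protocol calls vehicle, was injected for the same time. Bilateral frontal cortex was dissected 1 day after injections ended. There were 3 libraries in each group with 1 array each, and this number limits the precision. Whether the libraries came from separate mice is not stated in the labels. The p-values thus reflect the spread among these samples alone, and that spread may be technical.

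A miRNA gene is transcribed as a long primary transcript, often as part of another gene's intron or of a cluster of hairpins. In the nucleus Drosha and Dgcr8 cut out the hairpin, Xpo5 exports it, Dicer1 trims it, and an Argonaute protein keeps 1 of the strands. The loaded strand finds messenger RNAs mainly through its seed, bases 2 to 8 from the 5′ end, and lowers their stability or translation. In the cortex miRNAs are known for roles in neuronal differentiation, dendritic spines and myelination. The RNA was amplified by a whole-transcript method, and probe positions were not used here. Mature, precursor, primary and host intron RNA can therefore not be told apart in these values, and cross-hybridisation between near-identical copies was not tested.

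RefSeq (GRCm38.p6) gave a mature sequence for 270 members. Those shown are the sequences of the members described first below and of family relatives that share their seed, and capitals mark the seed. The first sequences all carry the let-7 seed, which was found in 9 of these 270 members.
mmu-let-7a-5p: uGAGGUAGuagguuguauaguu
mmu-let-7e-5p: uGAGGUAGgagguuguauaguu
mmu-let-7i-5p: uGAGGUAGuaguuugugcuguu
mmu-miR-98-5p: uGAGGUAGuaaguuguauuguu
mmu-let-7f-5p: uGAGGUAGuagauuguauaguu
mmu-let-7d-5p: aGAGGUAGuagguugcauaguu
The next come from the miR-181 family, with 6 members of 1 seed.
mmu-miR-181c-5p: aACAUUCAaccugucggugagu
mmu-miR-181d-5p: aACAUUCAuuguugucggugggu
mmu-miR-181a-5p: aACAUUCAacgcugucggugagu
Each of the next 4 is encoded by 2 of the measured genes, which have separate probe sets.
mmu-miR-9-5p: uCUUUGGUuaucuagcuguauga
mmu-miR-128-3p: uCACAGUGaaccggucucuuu
mmu-miR-138-5p: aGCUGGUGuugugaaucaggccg
mmu-miR-219a-5p: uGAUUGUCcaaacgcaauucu
The last are a pair with 1 seed and 1 cluster, followed by the members that were lowest in SAHA relative to saline, with miR-30a, which shares the seed of miR-384.
mmu-miR-212-3p: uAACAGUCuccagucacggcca
mmu-miR-132-3p: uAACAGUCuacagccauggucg
mmu-miR-186-5p: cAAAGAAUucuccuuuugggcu
mmu-miR-384-5p: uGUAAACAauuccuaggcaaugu
mmu-miR-30a-5p: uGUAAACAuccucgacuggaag

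On GRCm38.p6, the miR-9-5p sequence of Mir9-1 lies at chr3:88215613-88215635 on the + strand and that of Mir9-3 at chr7:79505279-79505301 on the + strand. Mir181c and Mir181d lie close together on the - strand, with their 5p sequences at chr8:84178924-84178945 and chr8:84178759-84178781. The let-7e-5p sequence is at chr17:17830366-17830387 on the + strand, inside the gene Spaca6. The miR-186-5p sequence is at chr3:157544285-157544306 on the + strand, inside Zranb2.

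MiRNA genes were, on balance, higher in SAHA than in saline. Beside genes of the same signal, this was seen from medium signal upward and not among the dim members. No miRNA gene passed the adjusted threshold of 0.05 in limma, and neither did any other gene (0 of 19938, 0%), the lowest adjusted p being 0.116. The mean was higher in SAHA for 207 of the 300 members (69.0%) and for 52.9% of all genes. The median difference, SAHA minus saline on the log2 scale, was 0.10 for the members and 0.01 for all genes. Most members were dim, however, and 72.3% of all genes below the median signal were higher in SAHA. The members' mean difference was 0.09. The medians of all genes in the members' signal bins (10 bins, described below) averaged 0.06 over the members. Single differences ran between -0.58 and 0.53.

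At an unadjusted limma p under 0.05, 77 members were higher (25.7%) and 15 lower (5.0%), against 11.9% and 5.56% of all genes. In 78 members all SAHA libraries lay above all saline libraries, and in 15 all lay below, against 13.6% and 10.4% of all genes. The split of 77 and 15 was 63 and 24 after each array was centred on the common median, beside 7.81% and 10.2% of all genes. It was 60 and 30 after quantile normalization, beside 6.72% and 6.44% of all genes. The larger part lay on the higher side under each of these scalings. These shares of all genes were not matched for signal, unlike those by bin below.

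Most miRNA probe sets were dim. The median signal was 5.69 for the members and 6.94 for all genes, and 239 of the 300 members lay below 6.94. Signals of different probe sets depend on their probes and give no order of abundance. Among all genes, the difference itself varied with signal, being above 0 for dim genes and below 0 for bright ones, so all genes were cut by mean signal into 10 bins of equal size, bin 1 being the dimmest, and members were read beside the genes of their bin.

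In bin 1 the 94 members had a median difference of -0.0047 and all genes one of 0.07. In bins 2, 3 and 4 the medians of members were 0.11, 0.05 and 0.10, beside 0.11, 0.10 and 0.10 for all genes. Up to this signal the members' medians lay close to or below those of all genes. In bin 5, 25 of 27 members were higher, with a median of 0.21 against 0.06 for all genes. In bins 6, 7 and 8 the members' medians were 0.18, 0.23 and 0.20, and those of all genes were 0.02, -0.02 and -0.05. Bins 9 and 10 held only 3 and 4 members. The 5 brightest were Mir128-1, Mir598, Mir346, Mir383 and Mir692-1, with differences of 0.04, 0.10, 0.19, 0.02 and -0.17.

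The members were then split at the median signal of all genes, a split whose counts were chosen after the data were seen. At or above it lay 61 members, of which 54 were higher in SAHA (88.5%), with a median difference of 0.18. The 9969 genes of that range had a median of -0.04, and 33.6% of them were higher. At an unadjusted limma p under 0.05, 31 of the 61 were higher (50.8%) and 1 was lower, against 4.11% higher and 8.28% lower among all genes there. Groups did not overlap for 34 members that were higher and 1 that was lower, beside 7.13% and 17.4% of all genes there. Below the median signal, 153 of 239 members were higher (64.0%), with a median of 0.08, against 72.3% of all genes there. At an unadjusted limma p under 0.05, 46 of the 239 were higher (19.2%) and 14 lower (5.86%), beside 19.6% and 2.84% of all genes there. The members' larger share of higher values was thus seen in the brighter range and not over the dimmer range as a whole. Bin 5, the brightest part of the dimmer range, was an exception. There 92.6% of members were higher against 68.1% of all genes. At an unadjusted limma p under 0.05 it was 51.9% against 17.1%.

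**Figure D1:**
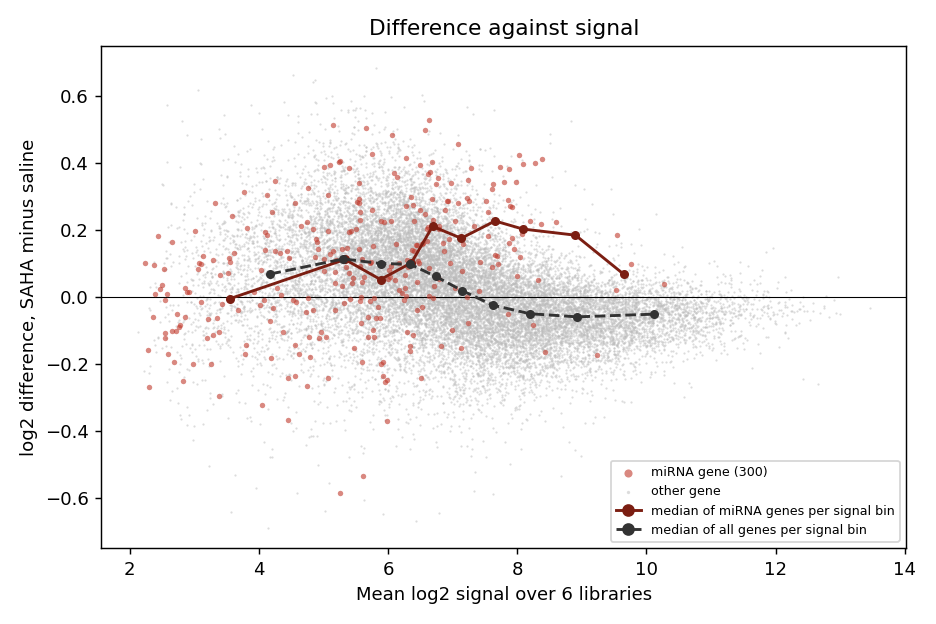
Log2 difference (SAHA minus saline, y axis) against the mean log2 signal over 6 libraries (x axis) for 300 miRNA genes (red) and all other genes (grey), with lines through the medians of 10 signal bins. The line of the miRNA genes runs at 0.18 to 0.23 over bins 6 to 8, where the line of all genes passes 0. 3 other genes outside the y axis are not drawn.

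The shift was present in each SAHA library. Relative to the mean of saline, the 61 members of higher signal had medians of 0.18, 0.16 and 0.19 in the SAHA libraries, against -0.08, 0.02 and 0.05 in the saline libraries. All 9969 genes of that range had medians of -0.06, -0.02 and -0.03 in SAHA and 0.01, -0.0012 and -0.01 in saline. The SAHA libraries were thus the 3 highest for miRNA genes and the 3 lowest for genes of the same range.

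**Figure D2:**
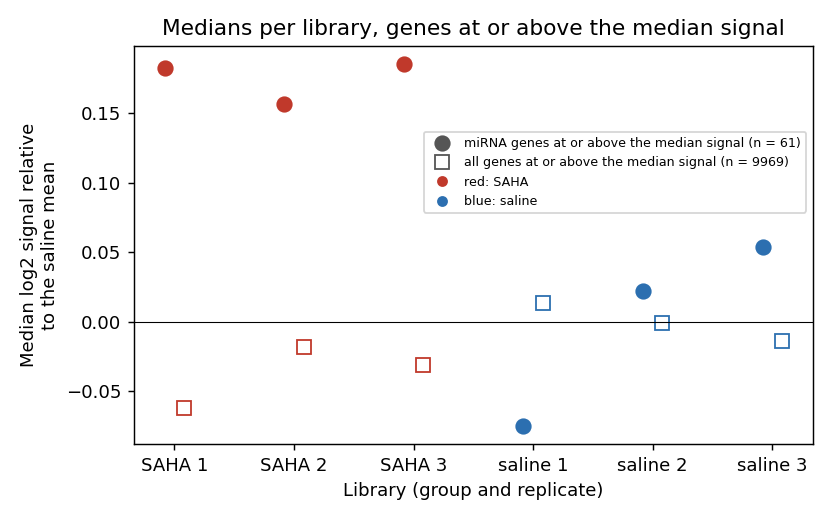
Median log2 signal relative to the saline mean (y axis) in each library (x axis), for the 61 miRNA genes at or above the median signal (filled circles) and all 9969 genes in that range (open squares). The miRNA medians are 0.16 to 0.19 in SAHA and -0.08 to 0.05 in saline, and the groups do not overlap.

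Libraries differed in X- and Y-linked transcripts. Xist reached 10.9 (log2) in saline replicate 1 and lay between 4.63 and 4.88 in the others, while the Y-linked gene Eif2s3y was at 7.80 in SAHA replicate 3 and at 9.18 or above elsewhere. Without both libraries, 48 members were higher and 13 lower at an unadjusted limma p under 0.05, against 7.49% and 2.96% of all genes. The median over the members of higher signal was then 0.13, and 17 of them were higher at that p, against 2.05% of all genes in their range. Without saline replicate 1 alone it was 22, against 2.8%. The 39 members on chromosome X had a median difference of 0.10, and so had the 261 elsewhere. The share with a higher mean was 61.5% on X and 70.1% elsewhere, and the share higher at an unadjusted limma p under 0.05 was 15.4% and 27.2%. Across all genes the correlation was no lower than 0.9945 within a group and no higher than 0.9943 between groups.

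Other classes of non-coding RNA were set beside the miRNA genes. Small nucleolar RNA (snoRNA) genes, most of which guide chemical modification of ribosomal RNA, had a median difference of -0.07 over the 17 at or above the median signal, and 5 of them were higher. Long non-coding RNA genes in that range had a median of 0.06 over 153 genes, with 99 higher. The 9657 protein-coding genes had a median of -0.04 there. A difference between classes was not tested.

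The 16 members with the smallest p among those whose groups did not overlap, 8 in each direction, were taken first. Mir9-1, 1 of the genes of miR-9, which acts in neural progenitors and neuron differentiation, had log2 signals of 6.87, 6.76 and 6.85 in SAHA, against 6.23, 6.47 and 6.29 in saline. All SAHA libraries lay above all saline libraries. The difference was 0.50 ± 0.08 (SE; limma, adjusted p = 0.116, n = 3 each), or 1.41-fold.

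Mir181c gave the tightest groups of these, with 7.81, 7.80 and 7.77 in SAHA against 7.45, 7.48 and 7.43 in saline. Its difference was 0.34 ± 0.06 (SE; limma, adjusted p = 0.116). It lay in signal bin 7, where all genes had a median of -0.02. Mir483, whose hairpin is in an intron of the growth factor gene Igf2, had 8.30, 8.30 and 8.13 in SAHA against 7.74, 7.90 and 7.82 in saline. Its difference was 0.42 ± 0.07 (SE; limma, adjusted p = 0.116).

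Mir680-3 had 8.37, 8.57 and 8.51 in SAHA against 8.00, 8.10 and 8.14 in saline, a difference of 0.40. Mir199a-1 had 6.71, 6.87 and 6.82 in SAHA against 6.46, 6.42 and 6.41 in saline, a difference of 0.37. Mir196a-1, a miRNA gene of a Hox cluster, had 5.44, 5.49 and 5.46 in SAHA against 4.93, 5.17 and 5.07 in saline, a difference of 0.41. Groups were apart in each of these, by more than the spread within either group.

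Mir3107 was higher by 0.32 and Mir211, which lies inside the channel gene Trpm1, by 0.30. Under the same adjustment none of the 8 passed 0.05. With the test restricted to the brighter genes, those not under the median signal, limma called 27 of 9969 genes (0.271%), among them Mir181c (adjusted p = 0.0402), Mir483 (0.0456) and Mir680-3 (0.0488). With a trend of variance on signal in eBayes it called 28 of 19938 (0.14%), among them Mir483 and Mir680-3, both at an adjusted p of 0.0337.

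On the lower side stood 3 members with differences beyond -0.3. Mir186 had 4.89, 5.19 and 4.79 in SAHA against 5.61, 5.66 and 5.35 in saline, a difference of -0.58 ± 0.12 (SE; limma, adjusted p = 0.123). Mir384, which shares its seed with the miR-30 family, had 5.15, 5.50 and 5.38 in SAHA against 5.66, 5.99 and 5.98 in saline, a difference of -0.53 ± 0.12 (SE; limma, adjusted p = 0.124). Mir350 had 5.83, 5.97 and 5.59 in SAHA against 6.18, 6.16 and 6.16 in saline, a difference of -0.37.

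Those 3 lay in signal bins 2 and 3. The other 5 on the lower side had differences between -0.27 and -0.17: Mir1a-2 and Mir499 are known from heart and skeletal muscle, Mir10b lies in a Hox cluster, and Mir466 and Mir692-1 complete them. Mir692-1 was the only 1 of the 8 at or above the median signal, with 9.11, 9.10 and 9.22 in SAHA against 9.28, 9.28 and 9.39 in saline.

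**Figure D3:**
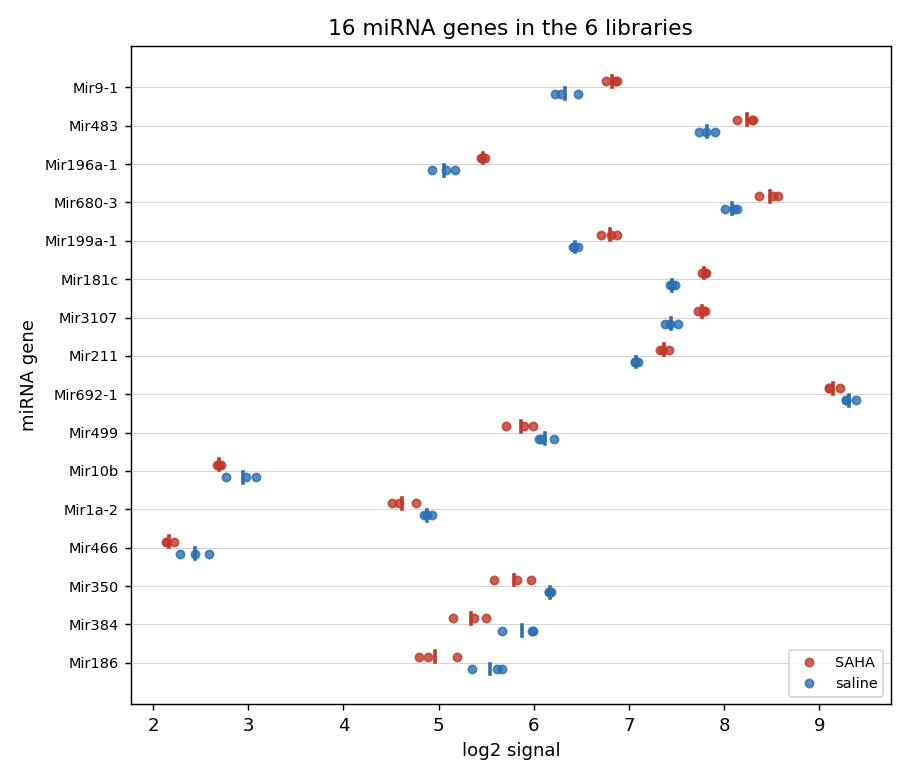
Log2 signal (x axis) of 16 miRNA genes in the 6 libraries, SAHA in red above saline in blue, with a vertical bar at each group's mean. The upper 8 genes are higher in SAHA by 0.30 to 0.50 and the lower 8 have differences of -0.58 to -0.17.

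Among 15 genes of miRNAs known from neurons, 11 were higher in SAHA, with a median difference of 0.08. At an unadjusted limma p under 0.05, 4 were higher (Mir9-1, Mir9-3, Mir128-2 and Mir138-1) and 1 was lower (Mir137), or 26.7% and 6.67% against 11.9% and 5.56% of all genes. The median signal of the 15, 6.38, lies in bin 4. All genes of that bin had a median difference of 0.10, with 23.2% higher and 2.56% lower at that p, so the higher share was near theirs. Mir137, of a miRNA that acts in neural stem cells, had 4.38, 4.30 and 4.31 in SAHA against 4.39, 4.73 and 4.58 in saline, and all SAHA values were below all saline values. The genes of miR-124, a miRNA abundant in neurons, had differences of -0.11 (Mir124a-2) and 0.06 (Mir124a-3). Mir153 and Mir7-1 had -0.19 and -0.08, and Mir7-2 and Mir7b had 0.16 and 0.11, all with overlapping groups.

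Genes that encode the same mature miRNA did not all have the same value. Mir9-3 had 5.17, 5.35 and 5.13 in SAHA against 4.79, 5.02 and 4.92 in saline, a difference of 0.30 beside 0.50 for Mir9-1. Mir128-2 was higher by 0.28 with separate groups, whereas Mir128-1, the brightest member, had 10.26, 10.33 and 10.28 in SAHA against 10.10, 10.28 and 10.37 in saline. Mir138-1 had a difference of 0.29 and Mir138-2 one of 0.08, and Mir218-1 and Mir218-2 had 0.11 and 0.04. Differences between copies were not tested.

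Of the miRNAs known to follow neuronal activity, Mir212 and Mir132 lie in 1 cluster on chromosome 11 and share a seed. Mir212 had 7.52, 7.26 and 7.41 in SAHA against 7.02, 7.08 and 7.23 in saline, a difference of 0.29, and all SAHA libraries were above the saline ones. Mir132 had 5.23, 5.46 and 5.69 in SAHA against 5.30, 5.43 and 5.51 in saline, and the groups overlapped (difference 0.04). Mir134, known from dendritic spines of rat neurons, was higher by 0.18 and its groups were separate.

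Of the miRNAs known to drive oligodendrocyte differentiation, Mir219a-1 had 6.81, 6.55 and 6.70 in SAHA against 6.36, 6.33 and 6.19 in saline. The groups were separate and the difference was 0.39 ± 0.08 (SE; limma, adjusted p = 0.12). Its copy Mir219a-2 had a difference of 0.10 and Mir338 one of 0.16, both with overlapping groups. The oligodendrocyte markers Cnp, Mag, Mbp and Mog averaged 8.29 to 8.53 in SAHA libraries and 8.38 to 8.48 in saline libraries, and 0 of the 4 had an unadjusted limma p under 0.05.

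MiRNAs known from other cell types present in cortical tissue were mixed. Mir142, of blood and immune cells, had 5.30, 5.21 and 5.39 in SAHA against 4.74, 4.98 and 5.003 in saline, a difference of 0.39. The other myeloid members, Mir146 and Mir155, had differences of 0.03 and -0.0020. Beside Mir142, all 5 neutrophil markers of the list were measured and 3 were higher at an unadjusted limma p under 0.05, against 11.9% of all genes. Their mean signals were 5.26 to 5.33 in SAHA and 5.06 to 5.16 in saline. These means lie in signal bin 2, where 21.3% of all genes were higher at that p, with a median difference of 0.11. Microglia markers averaged 7.58 to 7.62 in SAHA and 7.63 to 7.68 in saline, with 1 of 5 lower at that p. Of all genes 5.56% were lower at that p, and 8.83% of those in bin 7, where these averages lie. The part of these cells in the result was not tested, and in whole tissue fewer cells of a type and less RNA per cell cannot be told apart.

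Mir143, of smooth muscle, was higher by 0.26, and Mir145a, known from the same cells, had a difference of -0.07. Smooth muscle and pericyte markers averaged 7.55 to 7.56 in SAHA and 7.46 to 7.51 in saline, with 1 of 5 higher at an unadjusted limma p under 0.05. Mir144 and Mir451a, of red cell precursors, had differences of 0.10 and 0.03, while the 2 red cell markers measured averaged 6.84 to 6.97 in SAHA and 6.66 to 6.76 in saline. Mir126a, of endothelium, had a difference of -0.10, while the 5 endothelial markers averaged 7.199 to 7.26 in SAHA and 7.13 to 7.16 in saline, without overlap. Of 7 members known from striated muscle 0 were higher and 2 lower at that p, and of 6 known from epithelia 0 were in either direction, with 0.15 for Mir205. With 11.9% of all genes higher and 5.56% lower at that p, lists of this size show little. Mir204, of choroid plexus and retina, had 0.14, beside choroid plexus markers at 5.79 to 5.87 in SAHA and 5.70 to 5.92 in saline. Mir122, a liver miRNA, had -0.0085.

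Markers of cortical neurons were bright. The excitatory neuron markers Camk2a, Neurod6, Slc17a7 and Tbr1 had mean signals of 9.37 to 12.4. Their average was 10.55 to 10.61 in SAHA libraries and 10.61 to 10.65 in saline libraries, with 1 of 4 lower at an unadjusted limma p under 0.05. Of all genes 5.56% were lower at that p. In signal bins 9 and 10, where these markers lie, it was 9.78% and 5.02%. The striatal markers Drd2, Penk and Rgs9 were also measured, averaging 7.88 to 8.38 in SAHA libraries and 7.93 to 8.49 in saline libraries.

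The let-7 family, which holds back proliferative and embryonic programmes, split into members that were higher and members near or below 0. Its families and clusters here, and the pairs with host genes below, were partly chosen after their values were seen. Of 9 genes with the let-7 seed in their RefSeq mature sequence, 5 were higher in SAHA, with a median of 0.14. Of these, 4 had an unadjusted limma p under 0.05, where 11.9% of all genes were higher. In signal bin 3, which holds the median signal of the 9 genes (5.77), 22.9% of all genes were higher at that p. Mirlet7a-2, not among these 9, had a difference of -0.12. With it the let-7 genes numbered 10, with 5 higher, 5 lower and a median of 0.06. Mirlet7e had 6.71, 6.95 and 6.83 in SAHA against 6.49, 6.50 and 6.39 in saline, a difference of 0.37. Mirlet7a-1 had 7.04, 6.79 and 7.02 in SAHA against 6.61, 6.54 and 6.64 in saline, a difference of 0.36. Mir98 and Mirlet7i were higher by 0.38 and 0.30, and their groups did not overlap either.

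Mirlet7a-1, Mirlet7f-1 and Mirlet7d form 1 cluster on chromosome 13. Mirlet7f-1 had a difference of -0.12 and Mirlet7d one of -0.16, with overlapping groups, beside the 0.36 of Mirlet7a-1. Likewise Mir98 and Mirlet7f-2 are neighbours inside Huwe1 and had 0.38 and 0.14. Members of 1 cluster therefore gave values on both sides of 0, and a difference between neighbours was not tested.

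In the miR-181 family, 5 of 6 genes were higher with a median of 0.16. Mir181d had 8.08, 8.01 and 8.11 in SAHA against 7.53, 7.80 and 7.73 in saline, a difference of 0.38 beside the 0.34 of its neighbour Mir181c. Mir181a-2 and Mir181b-2, from another locus, each had 0.16 with overlapping groups. Mir181a-1, the dimmest of the family, had 4.59, 4.40 and 4.32 in SAHA against 4.43, 4.76 and 4.83 in saline.

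Other seeds shared by 3 or more members gave medians between -0.10 and 0.40. The 3 genes of the miR-196 seed had a median of 0.40, and 2 of them were higher at an unadjusted limma p under 0.05. All 3 lie in signal bin 2, where all genes had a median of 0.11 and 21.3% were higher at that p. The 4 genes found with the miR-34 and miR-449 seed, a family known from ciliated cells and the p53 response, had a median of 0.25. Of these 3 were higher at that p, where 11.9% of all genes were higher. Their median signal, 6.11, lies in bin 3, where it was 22.9%. Mir34c, not among these 4, was higher by 0.28, also at that p. The 6 genes of the miR-15 and miR-16 seed, known for restraining the cell cycle, had a median of -0.06. Among these, Mir497 had 6.94, 6.90 and 6.84 in SAHA against 6.07, 6.48 and 6.55 in saline. Its difference of 0.53 was the largest positive one of all members, and its neighbour Mir195a had 0.23. Of the 5 genes with the miR-30 seed, 4 had a higher mean in SAHA but none of them at that p, and Mir384 was lower at that p.

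Clusters were defined as neighbours within 10 kb on 1 strand, and 40 clusters held 130 members. The imprinted Dlk1-Dio3 region of chromosome 12 gave the largest, 29 members between Mir379 and Mir369, of which 18 were higher, with a median of 0.09. At an unadjusted limma p under 0.05, 5 were higher (17.2%) and 2 lower (6.90%), against 11.9% and 5.56% of all genes. Their median signal, 5.39, lies in bin 2. There 21.3% of all genes were higher and 2.41% lower at that p, with a median difference of 0.11. The extremes were Mir494 with 0.35 and Mir379 with -0.37, both dim, and the groups of both overlapped. The neighbouring cluster of 7 from Mir337 to Mir136 had 5 higher and a median of 0.16, with Mir540 at 7.27, 7.45 and 7.53 in SAHA against 7.05, 7.05 and 7.11 in saline.

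All 3 measured members of the Mir23a, Mir27a and Mir24-2 cluster on chromosome 8 were higher at an unadjusted limma p under 0.05, by 0.29, 0.40 and 0.25. Groups did not overlap for 2 of them. At that p 11.9% of all genes were higher, and 17.1% of those in signal bin 5, where all 3 lie. In the cluster inside Mcm7, Mir25 was higher by 0.39 and Mir93 and Mir106b had 0.03 and 0.02. In the related cluster on chromosome 14 Mir17 was higher by 0.37 and Mir18 had -0.20, and the host transcript of that cluster, Mir17hg, had -0.06. The 3 X-linked clusters of 4 or more members had medians of 0.20 (5 genes, Mir362 with -0.11 to Mir532 with 0.51), 0.12 (5 genes, Mir19b-2 with -0.10 to Mir92-2 with 0.20) and -0.06 (4 genes, Mir450-1 with -0.11 to Mir542 with 0.30). The embryonic cluster of Mir302 and Mir367 had a median of 0.02 over 5 genes, all dim.

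The longer transcripts under Mir symbols were Mir99ahg, Mir100hg, Mir17hg and Mir670hg. Mir99ahg, which contains the let-7c and miR-99a hairpins, had 7.86, 8.08 and 8.10 in SAHA against 7.72, 7.72 and 7.80 in saline, a difference of 0.27. With the mean of its probe sets in place of the brightest it had -0.04. Mir100hg had 0.05 and Mir670hg 0.10.

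For 115 members the RefSeq gene table held another gene that spans the hairpin on the same strand. The host was measured for 85 members, in 69 different genes. The 85 members had a median difference of 0.13, with 22 higher and 4 lower at an unadjusted limma p under 0.05, close to the share over all members (25.7% and 5.0%). The 69 hosts had a median of -0.02, with 28 higher and 41 lower in the mean and 5 in each direction at that p, where all genes had 11.9% higher and 5.56% lower. The hosts were brighter, with a median signal of 7.93 against 5.95 for the 85 members. The first value lies in signal bin 8, where all genes had a median of -0.05, with 2.66% higher and 10.9% lower at that p. The second lies in bin 3, where all genes had a median of 0.10. Members inside a host had a median of 0.11 and those with no such host one of 0.09. Over the 85 pairs, which share libraries and in part hosts, Pearson's r of the differences was 0.121 and Spearman's rho 0.131, as a description.

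In 5 of the 22 pairs whose miRNA gene was higher at an unadjusted limma p under 0.05, the host was also higher at that p. Of all genes 11.9% were. In 12 of the 22 the host had a lower mean in SAHA. Igf2 had 7.89, 7.87 and 8.02 in SAHA against 7.69, 7.75 and 7.73 in saline, a difference of 0.20 beside the 0.42 of Mir483. Cdc20b had 0.18 beside 0.27 for Mir449a and 0.41 for Mir449c. The other pairs were Mir135b with Lemd1 and Mir676 with Eda. Both groups were separate, in host and miRNA gene alike, for Mir483, Mir449a and Mir135b.

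In other pairs the miRNA gene and its host differed in size or direction. Mir101b had 5.23, 5.44 and 5.54 in SAHA against 4.76, 5.02 and 4.90 in saline, and its host Rcl1 had 6.79, 6.84 and 6.66 in SAHA against 6.95, 6.88 and 7.06 in saline. The differences were 0.51 and -0.20, and neither pair of groups overlapped. Mir672 was higher by 0.23, while its X-linked host Nexmif had 6.66, 6.71 and 6.70 in SAHA against 7.08, 7.16 and 6.77 in saline. Mir185 had 8.07, 8.22 and 8.16 in SAHA against 7.77, 7.75 and 7.89 in saline, and its host Tango2 had a difference of -0.01. Arpp21, the host of Mir128-2 and a bright cortical gene, had a difference of -0.02, and Zranb2, the host of Mir186, one of -0.11, in the same direction as the -0.58 of Mir186. The hosts of the other named members, such as R3hdm1 around Mir128-1, Nup93 around Mir138-2 and Hoxd4 around Mir10b, had differences between -0.13 (Mcm7) and 0.20 (Hoxd4).

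**Figure D4:**
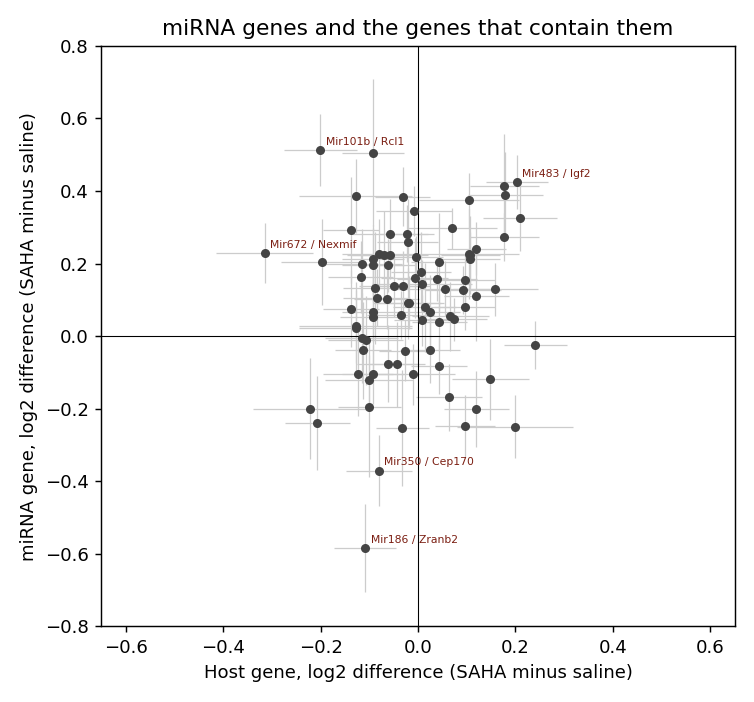
Log2 difference (SAHA minus saline) of each of 85 miRNA genes (y axis) against that of the gene which contains it (x axis), with SE bars from limma. Most points lie above 0 on the y axis while the hosts spread on both sides of 0.

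The difference moved with the base composition of the hairpin. Hairpin sequences were held for 258 members, which were split by GC content into 5 bins. In bins 1 and 2, with median GC of 37.9% and 43.2%, the median difference was -0.01 in each, and 25 of 52 and 24 of 51 members were higher. In bins 3 and 4, at 47.4% and 52.6%, it was 0.14 in each. In bin 5, at 59.9%, 50 of 52 members were higher with a median of 0.20.

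At an unadjusted limma p under 0.05, 3, 7, 13, 15 and 28 members were higher in bins 1 to 5, and 7, 3, 0, 2 and 1 were lower. Against 11.9% of all genes, the higher share was 5.77% in bin 1, 13.7% in bin 2 and 53.8% in bin 5, and against 5.56% the lower share was 13.5% in bin 1 and 1.92% in bin 5. Pearson's r between GC content and difference was 0.441 over the 258 members and 0.286 over the 44 at or above the median signal. GC content also went with signal over the 258 members, with a Spearman's rho of 0.662, but over the 44 brighter ones that rho was 0.026. These are descriptions over genes that share libraries. The part of base composition in the higher values was not tested.

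**Figure D5:**
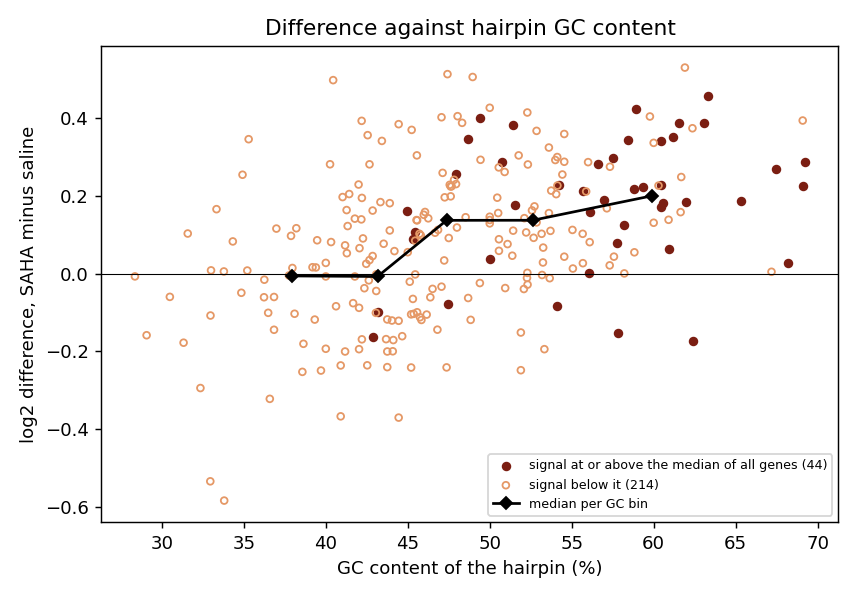
Log2 difference (SAHA minus saline, y axis) against GC content of the hairpin in percent (x axis) for 258 miRNA genes, filled where signal was at or above the median of all genes, with diamonds at the medians of 5 bins of GC content. The medians are -0.01 in the lowest 2 bins and 0.20 in the highest.

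Genes of miRNA biogenesis and silencing were read as the pathway around the members. Of 46 measured, 0 passed the adjusted threshold, and at an unadjusted limma p under 0.05 1 was higher and 0 were lower, against 11.9% and 5.56% of all genes. Their median difference was -0.04 and their median signal 8.62. That signal lies in bin 9, where all genes had a median difference of -0.06. There 0.853% of all genes were higher at that p and 9.78% lower. Of the nuclear processing enzymes, Drosha had -0.09 and its partner Dgcr8 0.04. The export factor Xpo5 had -0.04.

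Dicer1 had 9.36, 9.38 and 9.47 in SAHA against 9.33, 9.45 and 9.42 in saline, with overlapping groups. Its binding partner Tarbp2 was the 1 gene higher, with 7.29, 7.06 and 7.32 in SAHA against 7.003, 6.95 and 6.92 in saline. The difference was 0.26 ± 0.08 (SE; limma, adjusted p = 0.181). The Argonaute genes Ago1, Ago2, Ago3 and Ago4 had differences of -0.06, -0.06, -0.06 and -0.05, all with overlapping groups. Tnrc6a, Tnrc6b and Tnrc6c, whose products carry out silencing with Argonaute, had 0.04, -0.03 and 0.04.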

How the data were processed

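Frontal cortex RNA from 3 SAHA and 3 saline samples was measured on Affymetrix ST arrays from 200 ng of total RNA. The deposited log2 values were made with Affymetrix Expression Console and RMA, per the submitters' processing notes, which name no version. RMA subtracts background, normalizes arrays to each other and summarises probes, so each value depends on all arrays. The table has 35556 probe sets: 21789 name a single gene symbol, 1621 name more, and 12146 have no symbol. The brightest probe set of each gene over 6 arrays was used. Names, hosts, clusters and sequences came from RefSeq tables of GRCm38.p6, and all 300 members were found in the gene table.

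The comparison of SAHA with saline used limma 3.58.1 (lmFit, eBayes) under R 4.3.3 and covered all 19938 genes, with no filter on dim probe sets and no block. Tests were two-sided with Benjamini-Hochberg adjustment and a threshold of 0.05, and the fit was tested on simulated data. Members and lists were chosen with earlier results of these data known, so no list was tested.

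Named were the 8 members of smallest p per direction with separate groups, the members of the neuronal, activity and oligodendrocyte lists, the member of smallest p in each other list, the 5 brightest, the cluster extremes, hosts of these, and the core biogenesis genes. The let-7, miR-181, miR-15 and miR-16 seed members, Mirlet7a-2, Mir34c, the Mir23a and Mir25 clusters, Mir99ahg, and the pairs with Rcl1, Nexmif, Cdc20b, Tango2, Lemd1 and Eda were picked once their values were known. Alternatives tried were a fit without the dimmer genes, trended eBayes, array weights, other scalings (centring, quantile, cyclic loess), averaging over probe sets, a replicate block, and libraries left out.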

Additional observations from a re-analysis of the deposited data

How the results depend on the processing

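Values are on the log2 scale or are counts at an unadjusted limma p under 0.05. Against 77 higher and 15 lower miRNA genes and a median difference of 0.10, the lower count was 24 after centring and 30 after quantile or cyclic loess normalization. The median was 0.062 after centring, 0.037 after quantile and 0.036 after cyclic loess normalization. The cause was not tested, and the median of the brighter members lay between 0.15 and 0.21 under these scalings. Restricting the test to genes at or above the median signal left 33 higher and 1 lower, with a median of 0.18. It called 27 genes, 3 of them miRNA genes, at an adjusted p under 0.05. A trend in eBayes called 28 and a robust trend 31, with 2 miRNA genes and 9 lower in each, and the cause was not tested. Without saline replicate 1 and SAHA replicate 3 together, 48 were higher, and 17 of the brighter members against 31, with fewer samples in the fit. Leaving out 1 library at a time gave 59 to 84 higher, 11 to 15 lower, medians of 0.069 to 0.13, and for the brighter members medians of 0.15 to 0.22 and 22 to 33 higher. All genes of the brighter range then had medians of -0.05 to -0.03. Shares of all genes at that p were not set beside the counts from single left-out libraries, except for the brighter range without saline replicate 1. They were also not set beside those from cyclic loess normalization, the restricted test and the trends. Such counts alone do not set the members apart from other genes. With 1 library left out, the count at an adjusted limma p under 0.05 was 0 each time.

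Replicate numbers did not pair the samples: deviations of same-numbered libraries correlated at -0.105, -0.079 and 0.015. With the replicate block 71 were higher and 16 lower, the median was 0.10, and 28 of the brighter members were higher. No share of all genes was set beside these counts either. The block, the filter and the trends leave each difference as it is by construction, so they bear only on the calls, and the filter left 53 of the 124 named genes.

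Named genes with differences near 0 took the other sign under some settings, and the cause was not tested. Centring gave -0.0012 for Mir128-1, -0.018 for Mir383, -0.0042 for Mir367, -0.025 for Nup93, -0.030 for Trpm3, -0.030 for Slit3, -0.0036 for Dgcr8, -0.034 for Dicer1, -0.00032 for Tnrc6c, -0.012 for Mir93 and -0.018 for Mir106b. Quantile normalization gave -0.045 for Mir124a-3, -0.062 for Mir218-2, -0.068 for Mir132, 0.023 for Arpp21, -0.037 for Trpm1, 0.020 for Aatk, 0.032 for Tnrc6b, 0.0081 for Xpo5, -0.0025 for Mir181b-1, -0.061 for Mir93, -0.073 for Mir106b, 0.040 for Tango2 and 0.024 for Huwe1. Cyclic loess gave -0.044 for Mir124a-3, -0.058 for Mir218-2, -0.062 for Mir132, -0.0026 for Mir219a-2, 0.033 for Arpp21, -0.033 for Trpm1, 0.012 for Aatk, 0.027 for Tnrc6b, -0.063 for Mir93, -0.072 for Mir106b, 0.039 for Tango2 and 0.022 for Huwe1. The mean of probe sets gave -0.040 for Mir99ahg. Array weights gave 0.0026 for Egfl7, -0.020 for Mir181b-1 and -0.030 for Mir106b. Without saline replicate 1 and SAHA replicate 3 together the values were -0.013 for Mir124a-3, -0.034 for Mir128-1, -0.090 for Mir138-2, -0.0011 for Mir218-2, -0.025 for Mir7b, -0.13 for Mir132, 0.15 for Mir122, -0.10 for Mir383, -0.042 for Trpm3, -0.079 for Trpm1, -0.0047 for Spaca6, -0.065 for Dicer1, -0.0027 for Tnrc6a, 0.031 for Mirlet7d, -0.081 for Mir181b-1 and 0.015 for Tango2. With 1 library left out at a time the range was -0.021 to 0.16 for Mir124a-3, -0.038 to 0.099 for Mir128-1, -0.055 to 0.19 for Mir138-2, -0.017 to 0.075 for Mir218-2, -0.16 to 0.037 for Mir7-1, -0.021 to 0.20 for Mir7b, -0.073 to 0.16 for Mir132 and -0.015 to 0.18 for Mir219a-2. It was -0.10 to 0.11 for Mir122, -0.041 to 0.12 for Mir383, -0.076 to 0.11 for Mir367, -0.086 to 0.073 for Egfl7, -0.031 to 0.050 for Nup93, -0.074 to 0.12 for Trpm3, -0.0050 to 0.12 for Trpm1 and -0.015 to 0.035 for Slit3. It was -0.046 to 0.032 for Aatk, -0.0016 to 0.19 for Spaca6, -0.099 to 0.0040 for Ago1, -0.11 to 0.0016 for Ago4, -0.031 to 0.031 for Dicer1, -0.031 to 0.12 for Tnrc6a, -0.056 to 0.0084 for Tnrc6b and -0.084 to 0.0078 for Xpo5. It was -0.24 to 0.0089 for Mirlet7c-1, -0.37 to 0.025 for Mirlet7d, -0.12 to 0.066 for Mirlet7g, -0.15 to 0.16 for Mir181b-1, -0.081 to 0.12 for Mir93, -0.085 to 0.12 for Mir106b and -0.062 to 0.048 for Tango2. Dim signal limits the rest: 94 members lay in signal bin 1.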
